A study of Mus musculus with 6 samples.

Results

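Tumor ECs carried a connexin repertoire led by Gja1, followed by Gja4, Gja5 and Gjc1, and none of these 4 genes passed the test between WT and Apelin-KO mice. Connexins are the subunits of gap junctions. The 6 genes described here are Gja1, Gja4, Gja5, Gjc1, Gjb2 and Gjb5. They were picked by name, with earlier results of these data known, from the 24346 gene symbols measured. They were grouped as connexins of vessels, although Gjb2 and Gjb5 are known from epithelia. The order given here is that of the list. The first 4 of them reached an average of 1 FPKM and were tested between the genotypes. FPKM scale the reads of a gene to its transcript length and to the mapped reads of the sample, so levels of different genes can be set side by side. Gjb5 and Gjb2 lay below this average and are given by their values.

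RNA-sequencing covered tumor ECs of 3 WT samples and 3 Apelin-KO samples, which lack apelin, the peptide ligand of the receptor APJ, in the whole mouse. All mice were C57BL/6, aged 8 to 10 weeks, and carried MC38 tumors, a mouse colon carcinoma line grown under the skin and taken at day 19. The ECs were sorted from the digested tumors as CD31-positive, CD45-negative cells, a gate meant to leave out leukocytes and CD31-negative cells such as mural cells and fibroblasts. The sample titles also name saline in both genotypes, which the study's text ties to control osmotic pumps but not to this experiment. The labels do not say whether each sample came from 1 mouse or a pool, so p-values measure only the spread between these samples. Apelin acts on the assembly of ECs and on vessel caliber, and the comparison asks whether gap junction genes differ in its absence.

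The labels and the cell type were checked first. Values of single samples are listed in the order 1, 2, 3. Apln was 432, 435 and 504 FPKM in the WT samples, and 9.96, 17.5 and 24.3 FPKM in the Apelin-KO samples, and it was the 1 gene of 10964 tested, or 0.00912%, with an adjusted p under 0.05 in limma. All 15 endothelial markers were tested and present, with a summed level of 5610 to 6764 FPKM in WT and 6904 to 7464 FPKM in Apelin-KO samples, so the sums did not overlap. Markers of other cells were also measured, with hematopoietic sums of 248 to 874 FPKM in WT and 112 to 286 FPKM in Apelin-KO samples, fibroblast sums of 203 to 354 and 136 to 210 FPKM, and mural cell sums of 150.4 to 187 and 199.8 to 225 FPKM. The most abundant of them were Lyz2, C1qb and Tyrobp for hematopoietic cells, Col1a1, Col3a1 and Dcn for fibroblasts, and Kcnj8, Abcc9 and Acta2 for mural cells. Cldn3, Cdx2, Krt1, Krt15 and Ivl were listed at 0 in all 6 samples. The depth, estimated from the steps in low FPKM, was 8940000 to 10230000 reads per sample.

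A connexin protein assembles into a hexameric hemichannel, and hemichannels of adjoining cells dock to form a gap junction channel that passes ions and small molecules. In the vessel wall, Cx40 (Gja5) and Cx37 (Gja4) are the typical connexins of arterial endothelium, Cx43 (Gja1) is found in endothelium at sites of disturbed flow as well as in smooth muscle, and Cx45 (Gjc1) is known mainly from mural cells and the embryonic vessel wall. Cx26 (Gjb2) and Cx31.1 (Gjb5) belong to the beta group, known from epithelia such as the inner ear and the epidermis.

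The coding sequence of each of the 6 genes lies in a single exon of the transcript used here, in GENCODE models of GRCm38. Gja1 lies at chr10:56377330-56390415 on the plus strand, Gja5 at chr3:97032416-97053634 on the plus strand and Gjc1 at chr11:102799579-102804901 on the minus strand. Gja4 (chr4:127311421-127314039) and Gjb5 (chr4:127354809-127358181) lie on the minus strand of chromosome 4. Gjb2 (chr14:57098600-57104702, minus strand) lies between Gja3 and Gjb6. The coding sequences of the 6 genes were 58.9% to 65.9% identical in pairs, with 63.2% between Gja4 and Gja5. No stretch of 75 bases, the read length, of these transcripts occurred in a transcript of another gene, so reads of 1 member could be placed apart from those of another. An antisense gene overlaps Gja5 in the annotation, and whether the authors counted by strand is not given in the sources used here.

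The promoters of the 4 genes on which the values below turn are shown as the 250 bases before the RefSeq start site (GRCm38.p6), 5′ to 3′ on the strand of the gene. RefSeq promoters were matched for 5 of the 6 members, all but Gjc1. Capitals mark matches, on either strand, to short letter patterns known from binding sites of vascular or connexin gene regulators, which are spelled out after the sequences.
Gja1, chr10:56377050-56377299, plus strand: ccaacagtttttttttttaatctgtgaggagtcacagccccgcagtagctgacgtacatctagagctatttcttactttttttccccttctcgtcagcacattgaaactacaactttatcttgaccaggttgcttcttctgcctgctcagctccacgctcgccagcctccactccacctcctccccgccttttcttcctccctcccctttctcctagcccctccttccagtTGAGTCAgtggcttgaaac
Gja4, chr4:127314040-127314289, minus strand: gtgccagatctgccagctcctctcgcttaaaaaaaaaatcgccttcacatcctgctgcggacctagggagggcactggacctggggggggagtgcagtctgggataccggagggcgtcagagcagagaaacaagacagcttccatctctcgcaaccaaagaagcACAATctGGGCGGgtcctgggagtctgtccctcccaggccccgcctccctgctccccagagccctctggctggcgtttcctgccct
Gja5, chr3:97032152-97032401, plus strand: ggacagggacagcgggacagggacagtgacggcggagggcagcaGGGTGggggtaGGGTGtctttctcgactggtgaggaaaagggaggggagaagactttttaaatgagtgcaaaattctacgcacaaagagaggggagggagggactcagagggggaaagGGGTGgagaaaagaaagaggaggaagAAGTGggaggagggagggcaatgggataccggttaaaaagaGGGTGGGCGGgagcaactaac
Gjb5, chr4:127358165-127358414, minus strand: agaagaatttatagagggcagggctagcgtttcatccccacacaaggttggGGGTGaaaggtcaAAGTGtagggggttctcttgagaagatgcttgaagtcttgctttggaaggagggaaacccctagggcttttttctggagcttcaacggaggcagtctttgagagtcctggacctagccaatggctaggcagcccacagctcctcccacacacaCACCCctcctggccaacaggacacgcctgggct

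In the Gja1 window the AP-1 pattern TGANTCA stands at -19 to -13 from the start site. It reads the same on both strands, and 6.75% of 32851 RefSeq promoter windows of this length hold it. Gja4 and Gja5, the typical arterial pair, both hold a GC box, spelled GGGCGG, as do 32.7% of windows. That of Gja4 stands at -79 to -74 and that of Gja5 at -17 to -12. Gja5 also holds 4 matches to the KLF pattern, which is CACCC, all on the opposite strand, and the nearest of them overlaps its GC box by 1 base. Gjb5 holds 2 KLF matches, and 52.0% of windows hold at least 1. The SOX pattern ACAAT in Gja4 occurs in 27.7% of windows. The NKX2 pattern AAGTG, found in Gja5 and Gjb5, occurs in 40.7%. The RBPJ pattern TGGGAA, held by 21.6% of windows, and the T-box pattern, GGTGTGA, held by 3.33%, have no match in these windows. Most of these patterns are common, and the matches describe the sequence only.

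Gja1 was the most abundant connexin, 64th of the 24346 genes by mean FPKM. Its level was 610.1, 569 and 706 FPKM in the WT samples, and 639, 671 and 737 FPKM in the Apelin-KO samples. The groups overlapped, with WT 2 the lowest and Apelin-KO 3 the highest. The means were 628 ± 70.2 FPKM in WT and 682 ± 49.8 FPKM in Apelin-KO ECs (SD, n = 3 each), a WT minus Apelin-KO difference of -0.12 on the log2(FPKM + 1) scale (standard error 0.12, adjusted p = 0.774 from limma, Benjamini-Hochberg). The 95% confidence interval, -0.40 to 0.16, leaves room for an Apelin-KO level from 0.894 to 1.32 times that of WT. In a bulk sample, fewer cells of a type and less RNA per cell cannot be told apart.

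Gja4, which encodes Cx37, was 113, 127 and 184 FPKM in the WT samples, and 211, 112 and 144 FPKM in the Apelin-KO samples. Apelin-KO 1 was the highest and Apelin-KO 2 the lowest of all 6 samples, so the WT values fell inside the Apelin-KO range. The means were 141 ± 37.6 and 155 ± 50.5 FPKM (SD, n = 3 each), with a log2 difference of -0.12 (standard error 0.27, 95% confidence interval -0.75 to 0.52, adjusted p = 0.912 from limma). Without Apelin-KO 1 the log2 difference was 0.13 and without WT 1 it was 0.03, both with the opposite sign.

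Gja5, which encodes Cx40, was 46.4, 67.1 and 75.2 FPKM in the WT samples, and 112, 61.0 and 70.8 FPKM in the Apelin-KO samples. Apelin-KO 1 stood above the other 5 samples, WT 1 below them, and the groups overlapped. The means were 62.9 ± 14.9 and 81.2 ± 27.0 FPKM (SD, n = 3 each), with a log2 difference of -0.34 (standard error 0.27, adjusted p = 0.708 from limma). Its interval, -0.97 to 0.28, was wide enough to hold both a level 1.96 times as high in Apelin-KO ECs and one 0.821 times that of WT. Leaving out 1 sample at a time moved the difference between -0.52 and -0.09. The value nearest 0 was that without Apelin-KO 1.

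Gjc1, which encodes Cx45, was 10.9, 9.74 and 12.2 FPKM in the WT samples, and 14.0, 10.2 and 10.4 FPKM in the Apelin-KO samples. As with Gja4 and Gja5, Apelin-KO 1 was the highest sample, and the groups overlapped. The means were 10.97 ± 1.25 and 11.5 ± 2.13 FPKM (SD, n = 3 each), with a log2 difference of -0.06 (standard error 0.15, 95% confidence interval -0.41 to 0.30, adjusted p = 0.924 from limma). The sign turned without Apelin-KO 1, to 0.08, and without WT 2, to 0.02.

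**Figure D1:**
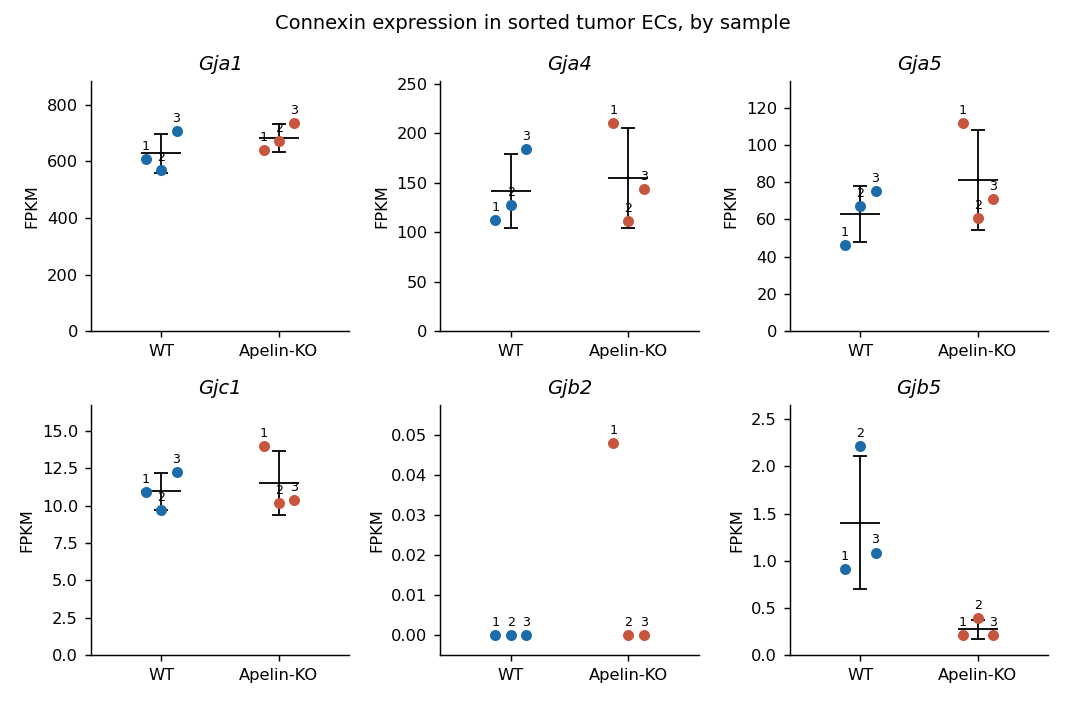
FPKM of each connexin (vertical axes, linear, a separate scale per gene) in the 3 WT and 3 Apelin-KO samples, numbered by replicate, with mean and SD drawn as horizontal marks and bars except for Gjb2. Gja1, Gja4, Gja5 and Gjc1 overlap between the genotypes, Gjb5 does not, and Gjb2 is above 0 in Apelin-KO 1 alone.

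The 4 tested members thus had 0 genes with an adjusted p under 0.05, and 0 with an unadjusted p under 0.05 in limma, where 5.17% of all genes tested passed unadjusted as higher in WT and 4.25% as lower in WT. In 0 of the 4 were the groups apart, against 14.4% of all genes tested. All 4 differences had a negative sign with a median of -0.12, where the median of all genes tested was -0.01. When the FPKM were instead scaled to the endothelial markers, which were higher in Apelin-KO samples, the log2 differences were 0.10 for Gja1, 0.11 for Gja4, -0.12 for Gja5 and 0.17 for Gjc1. That scaling shifted the median of all genes to 0.22, so the 4 members lay below the median of all genes under it.

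The beta connexin Gjb5 was low, and its groups did not overlap. It was 0.916, 2.21 and 1.09 FPKM in the WT samples, and 0.213, 0.388 and 0.211 FPKM in the Apelin-KO samples. The lowest WT sample thus stood above the highest Apelin-KO sample. The means were 1.41 ± 0.705 FPKM in WT and 0.271 ± 0.102 FPKM in Apelin-KO ECs (SD, n = 3 each), a ratio of 5.19, and the difference in mean log2(FPKM + 1) was 0.89. An exact permutation test, two-sided, gave p = 0.1, the smallest that 3 against 3 samples allow. In limma without the filter on mean FPKM, the same difference had a standard error of 0.21 and a 95% confidence interval of 0.38 to 1.39, with an unadjusted p = 0.00521 and an adjusted p = 0.510 over 16341 genes. In that fit 4.93% of genes passed unadjusted as higher in WT and the groups did not overlap for 12.6%. Gjb5 was 1 of 6 members.

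These values rest on few reads. Read numbers were estimated from the depth and the transcript length, and came to 14, 30 and 15 reads of Gjb5 for the WT samples, against 3, 6 and 3 for the Apelin-KO samples. Summed by genotype they were 59 reads (95% Poisson interval 44.9 to 76.1) and 12 reads (6.20 to 21.0). Per estimated depth this was a ratio of 5.05, with an exact 95% interval of 2.68 to 10.3 that covers counting error only. With 1 sample left out at a time, the log2 difference lay between 0.66, without WT 2, and 1.03, without WT 1.

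Markers of other cells moved beside Gjb5 in part. The hematopoietic sum was highest in WT 2, at 874 FPKM, where Gjb5 was highest too, and all 13 tested hematopoietic markers had positive differences, with a median log2 difference of 1.25 and 7 of 13 with an unadjusted p under 0.05. WT 3, at 248 FPKM, had a lower hematopoietic sum than Apelin-KO 2 and 3, at 286 and 280 FPKM, yet held more Gjb5 than either. All 7 tested fibroblast markers were positive as well, 5 of them with an unadjusted p under 0.05. Of all genes tested, 5.17% passed as higher in WT. Fap, a fibroblast marker below the filter, went the other way, with groups that did not overlap. It was 0.0847 ± 0.0454 FPKM in WT and 0.411 ± 0.0670 FPKM in Apelin-KO ECs (SD, n = 3 each). Of 12 keratinocyte markers, which would mark skin, 1 averaged 1 FPKM or more, and their sum was 1.42 to 2.98 FPKM in WT and 2.48 to 9.19 FPKM in Apelin-KO samples, highest in Apelin-KO 3. Epithelial and tumor cell markers summed to 8.72 to 13.8 FPKM in WT and 9.59 to 22.2 FPKM in Apelin-KO samples, mostly Krt20. Without Krt20, left out after its values were seen, the other 14 summed to 2.85, 2.31 and 1.83 FPKM in the WT samples and 1.13, 1.10 and 1.64 FPKM in the Apelin-KO samples. These sums of 14 did not overlap and were higher in WT, but WT 3 and Apelin-KO 3 lay close together. Vil1 alone gave 1.48 FPKM of the sum of WT 1. Krt20 itself was 8.82 ± 2.27 FPKM in WT and 13.7 ± 6.22 FPKM in Apelin-KO ECs (SD, n = 3 each), and the sums with it overlapped. A sum formed after its values were seen cannot serve as a test. Of the 14, 5 were above 0 in WT samples alone and 1 in an Apelin-KO sample alone, at 0.284 FPKM or less. How many of all genes do so was not counted. Cldn7, an epithelial tight junction protein, was 0.540 ± 0.216 FPKM in WT and 0.218 ± 0.0715 FPKM in Apelin-KO ECs (SD, n = 3 each). Its groups did not overlap, as for 12.6% of genes in the set without the filter. The groups of Vil1 and Muc1 overlapped, and Muc1 and Cdx1 had higher means in Apelin-KO samples. The part of these cells in the Gjb5 values was not tested.

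Gjb2, which encodes Cx26, was listed at 0 in 5 samples and at 0.048 FPKM in Apelin-KO 1, an estimated 1 read. A count of 3 reads would be 0.133 to 0.152 FPKM, depending on the sample, so all values lay below that limit and no ratio was formed. At this depth, no level or difference of Gjb2 can be read from these values.

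**Figure D2:**
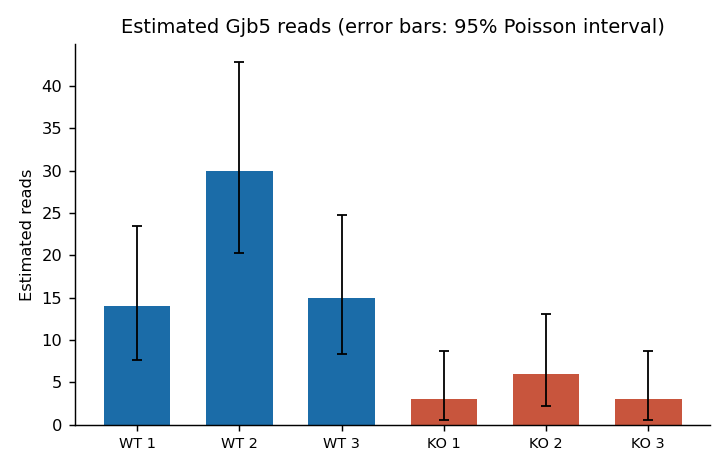
Estimated reads of Gjb5 (vertical axis, linear) in each WT (blue) and Apelin-KO (red, KO) sample, with 95% Poisson intervals for counting error. Gjb5 has 14 to 30 reads in WT and 3 to 6 in Apelin-KO samples.

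The order of the levels was the same in each of the 6 samples. Gja1 was 3.03 to 6.01 times the level of Gja4, Gja4 was 1.83 to 2.45 times that of Gja5, and Gja5 was 4.25 to 8.01 times that of Gjc1. Gjc1 in turn was 4.40 to 65.6 times the level of Gjb5, where the wide range follows Gjb5. Gjb5 was above Gjb2 in all 6 samples, but Gjb2 lay under its limit of 3 reads throughout. The pairs were formed from the order seen in these same samples, so no p-value is given for them.

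As a share of the summed FPKM of the 6 connexins, 776 to 979 FPKM per sample, Gja1 made up 65.5% to 78.6%. The lowest share was that of Apelin-KO 1 and the highest that of Apelin-KO 2, so both ends lay in the same genotype. Gja4 and Gja5 together made up 20.4%, 25.1% and 26.5% in the WT samples, and 33.0%, 20.2% and 22.3% in the Apelin-KO samples. Their ratio, Gja4 over Gja5, was 2.43, 1.90 and 2.45 in the WT and 1.88, 1.83 and 2.03 in the Apelin-KO samples. The genotypes overlapped in all of these quantities. Gjc1 held 1.08% to 1.43% and Gjb5 at most 0.285%.

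**Figure D3:**
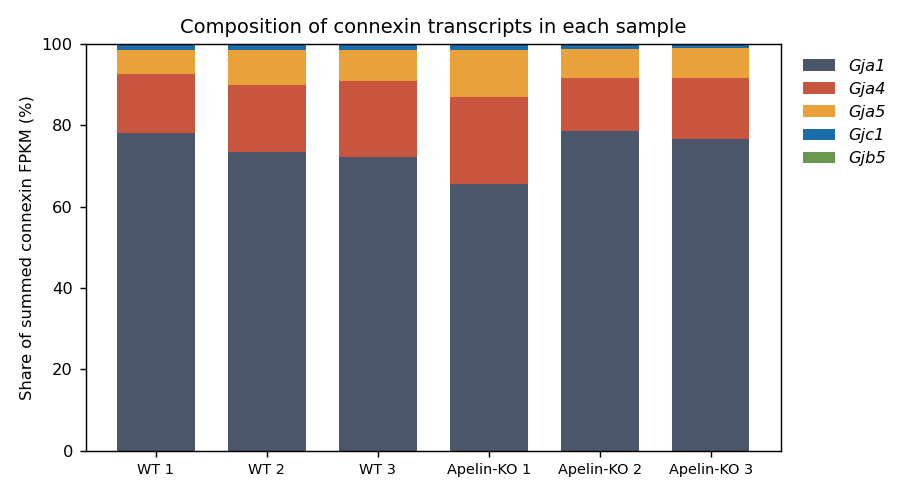
Share of each connexin in the summed connexin FPKM of a sample (vertical axis, percent) for the 3 WT and 3 Apelin-KO samples. Gja1 fills 65.5% to 78.6% of every bar, Apelin-KO 1 has the widest Gja4 and Gja5 segments, and Gjb5 is too small to be seen.

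The members varied between samples to unequal degrees. The coefficient of variation over the 6 samples was 9.45% for Gja1, 14.1% for Gjc1, 27.3% for Gja4 and 30.4% for Gja5. Gja4 and Gja5 followed each other, with a Pearson correlation of log2(FPKM + 1) of 0.89 over the 6 samples (Spearman 0.94), and Gja4 and Gjc1 had a correlation of 0.86. Gja1 had correlations of 0.18 to 0.30 with these 3 genes. The samples share their library with all genes, and both high correlations include Apelin-KO 1, where Gja5 was 1.55, Gja4 1.42 and Gjc1 1.24 times its own mean. These correlations are descriptions, since many genes reach such values over 6 samples. For Gja4, 1.50% of the other genes tested had a higher correlation with it than Gja5 did.

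**Figure D4:**
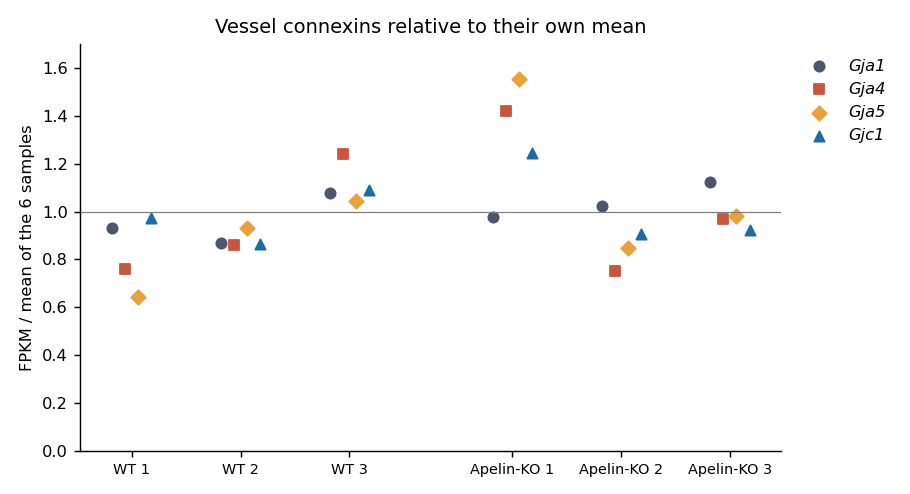
FPKM of Gja1, Gja4, Gja5 and Gjc1 divided by the gene's own mean over the 6 samples (vertical axis, no unit), by sample. In Apelin-KO 1 the points of Gja5, Gja4 and Gjc1 lie at 1.55, 1.42 and 1.24 while that of Gja1 lies near 1.

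The genes most like each member over the 6 samples were named by the highest Pearson correlation. For Gja1 they were Inpp1 (0.992), Spag9 (0.990) and Wdr26 (0.989). For Gja4 they were Commd3 (0.989), Mgst3 (0.988) and Btd (0.986). For Gja5 they were Fam101b (0.992), Mcf2l (0.991) and Mxd3 (0.987), and for Gjc1 Tbcc (0.978), Prkcdbp (0.975) and Csf2rb2 (0.975). Between 96 and 175 of the genes tested had a correlation over 0.9 with a given member.

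The rest of the family was sparse. Of 17 other connexin and pannexin genes, 3 averaged 1 FPKM or more, 8 were listed at 0 in all 6 samples, and 0 of the 3 passed an unadjusted p under 0.05. Panx1, which forms ATP-releasing channels in single membranes, was 10.03 ± 1.02 FPKM in WT and 8.92 ± 1.04 FPKM in Apelin-KO ECs (SD, n = 3 each), a log2 difference of 0.15.

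**Figure D5:**
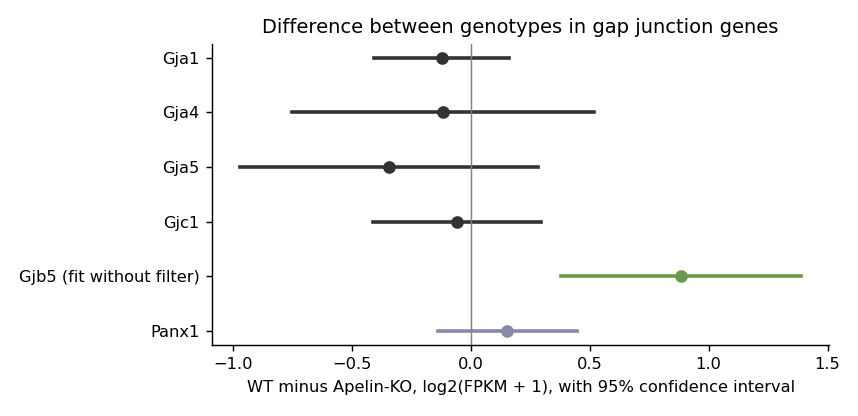
WT minus Apelin-KO difference in log2(FPKM + 1) (horizontal axis) with its 95% confidence interval from limma, for the 4 tested members, for Gjb5 from the fit without the filter, and for Panx1. The interval of Gjb5, 0.38 to 1.39, is the one that does not include 0, with an adjusted p of 0.510 in that fit.

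Partners that bind, deliver or degrade connexins were measured as a group of 19 genes, 18 of which were tested. In limma, 5.17% of all genes tested passed an unadjusted p under 0.05 as higher in WT and 4.25% as lower. Of the 18, 0 did so in either direction, 13 differences were negative and the median was -0.06, against -0.01 over all genes. The count higher in WT was 2 with endothelial marker scaling or without Apelin-KO 3, and 1 with array weights, without WT 2 or without WT 3. The count lower in WT was 1 without the filter, with an intensity trend, with a filter at 5 FPKM, with the replicate block or without Apelin-KO 2. Dbn1, an actin-binding protein that holds Cx43 at the membrane, was 82.9 ± 5.87 FPKM in WT and 99.7 ± 9.17 FPKM in Apelin-KO ECs (SD, n = 3 each). Its log2 difference was -0.26 and its groups did not overlap, as in 14.4% of all genes tested. Cav1, the caveolar coat protein, had a log2 difference of -0.33, Nov, a secreted protein that binds Cx43, 0.35, and Src, a kinase that phosphorylates Cx43, 0.52. These 4 had the lowest unadjusted p of the list, between 0.054 and 0.096.

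Genes of arterial identity, the vessel type in which Gja4 and Gja5 are typical, had a median log2 difference of -0.13 over 16 tested genes. Of these, 2 were lower in WT and 0 higher at an unadjusted p under 0.05. Of all genes tested, 4.25% were lower and 5.17% higher in WT at that level, and 14.4% had groups apart. Jag2, a Notch ligand, was 18.6, 19.1 and 20.6 FPKM in the WT samples, and 27.9, 27.3 and 23.5 FPKM in the Apelin-KO samples. Its groups did not overlap, with a log2 difference of -0.41 (standard error 0.11, adjusted p = 0.501 from limma). Sox17, an arterial transcription factor, was 18.4 ± 1.75 FPKM in WT and 25.9 ± 4.36 FPKM in Apelin-KO ECs (SD, n = 3 each), a log2 difference of -0.46 that had the same adjusted p. Notch4 had a log2 difference of -0.24 and Fbln5, an elastic fibre protein, one of -0.43, and neither passed. The count of 2 was 0 when FPKM were scaled to the endothelial markers, 1 without WT 2 or without Apelin-KO 1, 4 with an intensity trend and 5 without Apelin-KO 2.

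Of 9 venous genes, 1 passed unadjusted, Vwf, the von Willebrand factor of endothelial granules, at 236 ± 37.2 FPKM in WT and 296 ± 10.3 FPKM in Apelin-KO ECs (SD, n = 3 each), a log2 difference of -0.34. Of 15 tested genes that respond to shear or act upstream of connexins, 2 were lower in WT at an unadjusted p under 0.05. In all, 13 were negative and the median was -0.24. Of all genes tested, 4.25% were lower in WT at that level and 14.4% had groups apart. Nfatc1, a calcineurin-dependent factor, was 17.9, 17.9 and 18.1 FPKM in the WT samples, and 22.1, 21.5 and 24.4 FPKM in the Apelin-KO samples. The WT values lay close together and below all Apelin-KO values, with a log2 difference of -0.32 (standard error 0.10, adjusted p = 0.501 from limma). Foxo1 had a log2 difference of -0.27, Foxc2, a factor of lymphatic valves, -0.28, and Klf2, the flow-induced factor, -0.27. The endothelial markers had a median difference of -0.22, of nearly the same size, and 14 of 15 were negative, 3 of them, Tie1, Cdh5 and Pecam1, with an unadjusted p under 0.05. The part of the endothelial share of the RNA in the values of these lists was not tested.

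Mural cells also use Gja1, Gjc1 and Gja4, so their markers were set beside the connexins. Of 9 tested mural markers, 3 had an unadjusted p under 0.05, all lower in WT, where 4.25% of all genes tested were. The median log2 difference was -0.29. The differences of 7 were negative and those of 2 positive, Cspg4 at 0.35 and Tagln at 0.30. Rgs5, a pericyte marker, was 3.44 ± 0.246 FPKM in WT and 7.78 ± 0.923 FPKM in Apelin-KO ECs, and Higd1b was 2.12 ± 1.64 and 6.67 ± 1.92 FPKM (SD, n = 3 each). Ndufa4l2 was 1.19 ± 0.436 and 2.49 ± 0.870 FPKM. Myh11 and Cnn1, which define mature smooth muscle, were below 1 FPKM in every sample. Kcnj8 was 77.8 ± 12.1 and 93.3 ± 13.03 FPKM and Abcc9 63.7 ± 12.7 and 74.6 ± 3.53 FPKM (SD, n = 3 each), at levels near that of Gja5. The other mural markers were far lower, the highest by mean being Acta2 at 6.11 ± 0.873 and 8.02 ± 2.91 FPKM. The mural sums thus follow mainly Kcnj8 and Abcc9 and do not give the level of mural cell RNA. The part of mural cell RNA in the connexin values was not tested. Of 7 lymphatic markers, 0 passed an unadjusted p under 0.05 in limma, with a median log2 difference of 0.45, 4 positive and 3 negative. Their sum was 443, 193 and 232 FPKM in the WT samples, and 182, 294 and 265 FPKM in the Apelin-KO samples. The part of lymphatic ECs in the connexin values was not tested.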

How the data were processed

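Tumor ECs (CD31+ CD45-) of 3 WT and 3 Apelin-KO samples were profiled by stranded mRNA sequencing (single-end, 75 bases). The authors mapped reads to mm10 and calculated FPKM, and the deposited files give FPKM with 3 decimals per gene symbol. The submitters' processing notes name bcl2fastq 2.17.1.14, TopHat2 2.1.1, Bowtie2 2.2.4, SAMtools 1.0 and Cufflinks 2.2.1, and the study's methods give other versions of some of them. The annotation and strand setting are not given in the sources used here.

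WT and Apelin-KO samples were compared on log2(FPKM + 1), which understates differences of low genes, with limma 3.58.1 in R 4.3.3 (two-sided moderated test, Benjamini-Hochberg adjustment). Of 24346 genes, 10964 averaged at least 1 FPKM and were tested. A single value below that mean was tested by an exact permutation test (Python 3.11.15, scipy 1.17.1). Calls are counted at an adjusted or unadjusted p under 0.05. The scripts were tested on simulated data. Read numbers were estimated from the smallest steps of FPKM over 3742 genes of single transcripts, assuming 200-base fragments, with 69.0% to 72.7% of low values within 0.1 of a whole read. No count test was run.

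Members and lists were chosen with earlier results of these data known. Named were the 6 members, Apln, other connexins and pannexins of at least 1 FPKM, the up to 4 genes of lowest p in other lists, the 3 most abundant markers of other cell types, and the 3 genes most correlated with each tested member. Some genes that meet this rule are not reported here. Genes outside this rule (Myh11, Cnn1, Tagln, Cldn7, Fap, Muc1, Cdx1 and markers listed at 0) were named after their values were seen. Alternatives changed the pseudocount, filter, scaling, variance, sample weights, block and samples included.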

Additional observations from a re-analysis of the deposited data

How the results depend on the processing

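Of the members, Gja5 and Gjb5 kept their sign under every alternative that gave a value. With FPKM scaled to the endothelial markers, the log2 difference turned to 0.10 for Gja1, 0.11 for Gja4 and 0.17 for Gjc1, with adjusted p of 0.572, 0.780 and 0.495 in limma, and the median of all genes moved from -0.01 to 0.22. With 1 sample left out at a time, the difference ranged from -0.21 to -0.05 for Gja1, from -0.33 to 0.13 for Gja4, from -0.52 to -0.09 for Gja5, from -0.13 to 0.08 for Gjc1 and from 0.66 to 1.03 for Gjb5. Gja4 turned to 0.13 without Apelin-KO 1 and 0.03 without WT 1, and Gjc1 turned to 0.078 without Apelin-KO 1 and 0.02 without WT 2. The difference of Gjb5 was 1.96 with a pseudocount of 0.1 and 2.28 with one of 0.01, since the larger pseudocount shrinks low values. The lowest adjusted p of any member under any alternative in limma was 0.495.

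Among all genes, 1 had an adjusted p under 0.05. The count was 2 without the filter, with a pseudocount of 0.01, with a mean of at least 5 FPKM and with an intensity trend, and 0 to 3 with 1 sample left out. With each gene's own variance it was 0 in limma, where 376 passed unadjusted as higher in WT. The 567 genes higher in WT at an unadjusted p under 0.05 became 330 with a mean of at least 5 FPKM and 1891 with endothelial scaling. The 466 lower in WT became 45 with endothelial scaling. With 1 sample left out, these counts ranged from 314 (without WT 2) to 738 (without WT 3) and from 224 (without WT 2) to 547 (without Apelin-KO 2), with 354 higher in WT without WT 1 and 300 lower in WT without Apelin-KO 3.

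Samples of the same replicate number had correlations of their deviations of -0.14, 0.21 and -0.02, against -0.20 to 0.21 for other pairs. With 3 samples per group such values cannot show whether samples were paired, and the labels name no pairing. With the replicate number as a block, the log2 difference was -0.12 for Gja1, -0.12 for Gja4, -0.34 for Gja5 and -0.06 for Gjc1, and the adjusted p were 0.807 to 0.940. Low depth limits Gjb5 and Gjb2, which rest on at most 30 estimated reads per sample.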
